A study of Mus musculus with 8 samples.

Results

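Genes of the Wnt pathway were followed in neonatal cardiomyocytes (NCMs) of mice whose mothers breathed filtered air (FA) or diesel exhaust (DE) during pregnancy. The set was chosen by gene name. It held every mouse gene whose symbol is Wnt, Fzd, Sfrp or Dkk with its number, together with Lrp5, Lrp6, Axin1, Axin2, Lef1, Tcf7, Tcf7l1, Tcf7l2, Frzb and Wif1. This gave 47 of the 27179 genes in the count table, of which 33 passed the filter on low counts and entered the test among 14966 genes. Male C57Bl/6J offspring of dams kept in FA or DE from embryonic day 0.5 until late gestation were taken at postnatal day 0, with 4 FA libraries (FA 2, FA 3, FA 4 and FA 6) and 4 DE libraries (DE 1, DE 3, DE 5 and DE 7). Each library came from the cells of a single neonatal heart, enriched for cardiomyocytes by letting fibroblasts attach to a dish in the presence of Ara-C, a drug that kills dividing cells. Both groups went through this enrichment. The RNA was poly-A selected and sequenced with a stranded kit, and the values are counts per gene. The litter of each pup is not given in the sources used here, and p-values measure the spread between these libraries.

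Wnt proteins are secreted, lipid-modified ligands that bind a Frizzled (Fzd) receptor together with the co-receptor Lrp5 or Lrp6 at the surface of the receiving cell. In the canonical branch the bound receptor draws Axin, the scaffold of the complex that destroys beta-catenin, to the membrane, so that beta-catenin builds up and acts in the nucleus with TCF and LEF factors. Sfrp proteins, Frzb and Wif1 are secreted and bind Wnt ligands or their receptors, and Dkk1, Dkk2 and Dkk4 bind the Lrp co-receptors. In the heart the pathway guides the making of cardiac progenitors, valve formation and the growth of the fetal myocardium, and it is drawn on again in fibrosis and hypertrophy.

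The libraries held between 17943024 and 39839737 counts, and levels are given as normalized CPM, the count of a gene scaled to a common library size with TMM factors, or as normalized CPM per kilobase of exon where genes are compared with each other. A gene was called where the quasi-likelihood test of edgeR gave an adjusted p (Benjamini-Hochberg, over all 14966 genes) of at most 0.05 and the groups differed by at least 25%. This called 868 genes (5.8%), 536 higher (3.58%) and 332 lower (2.22%) in DE. With scaling by library totals alone it called 803 higher and 217 lower. The 9 cardiomyocyte markers summed to between 63440 and 68250 normalized CPM in FA and between 55590 and 65170 in DE. In this list Myh6, the adult alpha-myosin heavy chain, was called lower and Myh7, the fetal beta form, was called higher in DE. The 9 fibroblast markers summed to between 2015 and 3469 normalized CPM in FA and between 3665 and 6186 in DE, with all 9 measured higher in DE and 3 called (Col1a1, Dcn and Thy1). The defining T cell markers were near 0, with a sum of at most 0.533 normalized CPM. Genes with more than 6 kb of exon were measured higher in FA 2, FA 4, DE 1 and DE 7 than in the other libraries. In the labels the names of DE 3 and DE 5 start with 12 and those of the other 6 libraries with 11, and what this number marks is not stated.

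Of the 33 tested members, 3 were called, all higher in DE. These were Tcf7l1, a TCF factor that mostly represses its targets in the absence of beta-catenin, and Frzb and Wif1, which are secreted Wnt antagonists. They make up 9.09% of the tested members, against 5.8% of all tested genes. None was called lower by edgeR's quasi-likelihood test, while DESeq2 and edgeR's likelihood ratio test each called 1 lower, Wnt9b, as did the fit with offsets for length and GC content. With the 25% difference built into edgeR's test itself none of the 3 kept its call, with adjusted p of 0.433 for Tcf7l1, 0.292 for Frzb and 0.235 for Wif1. At an unadjusted p under 0.05 there were 7 members (21.2%, against 25.6% of all tested genes), 4 higher and 3 lower. The FA and DE values did not overlap for 5 members (15.2%, against 14.7% of all tested genes). Over the 33 members 16 were measured higher and 17 lower, with a median log2 fold change of -0.03, beside 0.0037 over all tested genes. The interval of the difference lay within a 2-fold change in either direction for 25 of the 33.

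**Figure D1:**
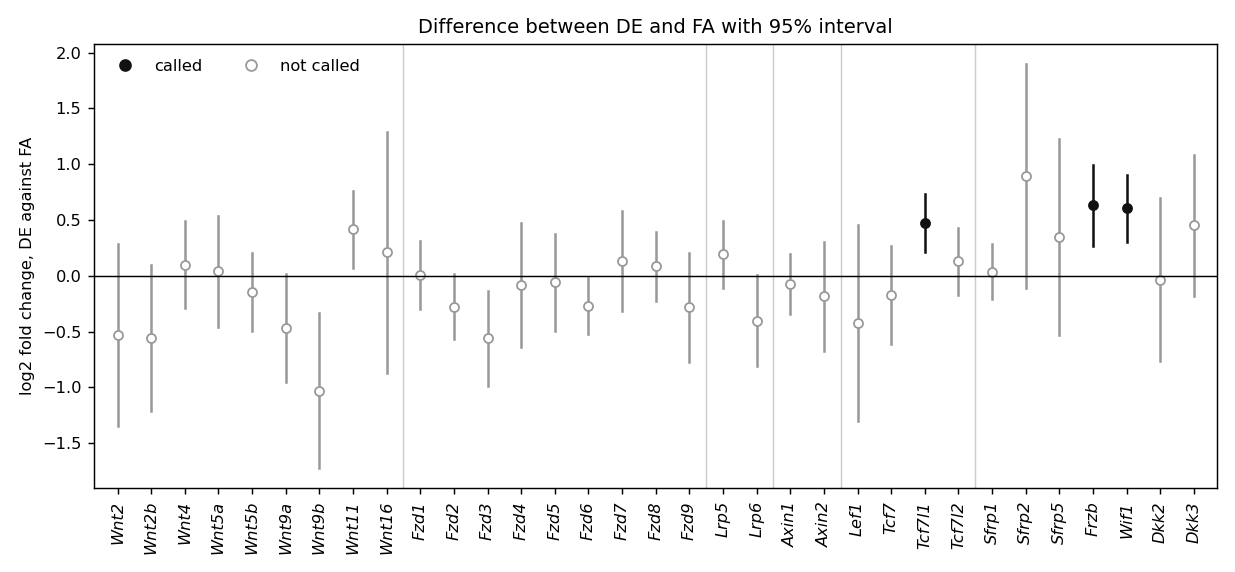
Log2 fold change of DE against FA (vertical axis) for the 33 tested members, grouped by role from left to right as ligands, Frizzled receptors, Lrp co-receptors, Axin scaffolds, TCF and LEF factors and secreted inhibitors. Points are estimates and lines 95% intervals from edgeR over 4 FA and 4 DE libraries, and filled points mark the 3 called genes, Tcf7l1, Frzb and Wif1, whose intervals lie above 0.

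Because the 3 called genes were measured higher in all 4 DE libraries than in any FA library, the sequence just upstream of each is shown. The sequences are the 250 bases before the RefSeq start site on GRCm38.p6, written in the direction of transcription, with capitals marking a match to a short TCF and LEF core motif.
Tcf7l1, chr6:72789046-72789295, minus strand: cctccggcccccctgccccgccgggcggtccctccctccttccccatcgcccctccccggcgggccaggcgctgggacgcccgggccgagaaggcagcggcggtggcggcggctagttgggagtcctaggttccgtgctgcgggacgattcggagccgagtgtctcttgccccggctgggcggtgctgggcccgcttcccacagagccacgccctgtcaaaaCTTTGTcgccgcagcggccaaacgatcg
Frzb, chr2:80447397-80447646, minus strand: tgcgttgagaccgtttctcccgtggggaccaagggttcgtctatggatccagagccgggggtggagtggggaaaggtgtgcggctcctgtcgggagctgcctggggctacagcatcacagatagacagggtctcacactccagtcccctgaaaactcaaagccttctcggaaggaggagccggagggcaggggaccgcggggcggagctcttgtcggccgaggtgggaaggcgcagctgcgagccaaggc
Wif1, chr10:121033754-121034003, plus strand: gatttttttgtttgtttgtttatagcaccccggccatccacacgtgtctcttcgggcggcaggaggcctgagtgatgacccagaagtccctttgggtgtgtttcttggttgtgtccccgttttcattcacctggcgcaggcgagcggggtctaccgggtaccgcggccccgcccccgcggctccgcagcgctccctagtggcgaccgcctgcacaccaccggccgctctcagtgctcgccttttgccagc
Both strands were searched for 3 motifs that share their first letters and differ at the end. Tcf7l1 held 1 CTTTGT, and this motif occurs in 16.5% of the 32851 promoters of the table. Frzb and Wif1 held none of the 3 in this window. Bases just after the start site were found in GENCODE M21 transcripts of Frzb and Wif1 but not of Tcf7l1, so the Tcf7l1 start site is less certain. RefSeq promoters were found for 32 of the 47 members, with 40 start sites in all. The CTTTGT motif stood at 20.0% of these start sites. Of the other motifs, CTTTGAT stood in the promoters of 2 members, Wnt5b and Wnt11 (5.0% of member start sites, 3.21% of all). The third, CTTTGAA, stood only in that of Dkk1 (2.5% of member start sites, 4.46% of all). Axin2, a known target of beta-catenin, held none of the 3 motifs in its 250 bases. The member promoters were rich in C and G, with a median GC content of 66.6% and a median of 20.5 CpG sites, beside 52.4% and 6 over all promoters.

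The ligands were low. Of 19 Wnt genes 9 passed the filter, and their mean levels ran from 0.200 to 1.41 normalized CPM per kilobase. Wnt11, which mainly signals without beta-catenin and takes part in early heart formation, was highest at 1.41 and Wnt5b next at 1.27 normalized CPM per kilobase. Wnt1, Wnt3a, Wnt8a, Wnt8b and Wnt10a had fewer than 10 counts over all 8 libraries together, as did the inhibitor Dkk4. Wnt3a had 0 counts in every library, which allows up to 0.0748 CPM in the deepest library and 0.169 in the shallowest. The other 8 untested members, namely Wnt3, Wnt6, Wnt7a, Wnt7b, Wnt10b, Fzd10, Sfrp4 and Dkk1, had between 10 and 77 counts in all.

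**Figure D2:**
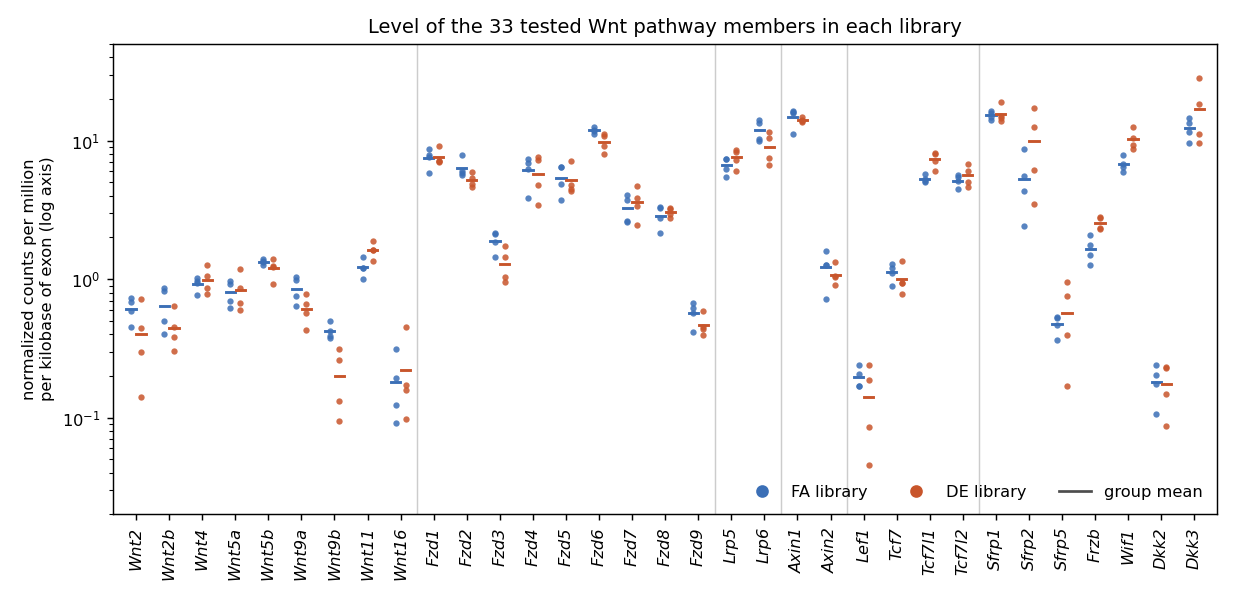
Normalized CPM per kilobase of exon (log axis) of the 33 tested members in each FA (blue) and DE (orange) library, with the group mean as a line and vertical rules between the roles. Sfrp1, Dkk3 and Axin1 stood highest, each at or above 14.5 on average, and no ligand averaged above 1.41.

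The quasi-likelihood test called no ligand, against 5.8% of all tested genes, and 2 had an unadjusted p under 0.05, where 25.6% of all tested genes did. The median log2 fold change of the 9 was -0.14, with 4 measured higher and 5 lower. The lowest was Wnt9b, a ligand known from the kidney and from the endocardium of growing valves. It lay at 1.76, 1.69, 1.92 and 2.26 normalized CPM in FA 2, FA 3, FA 4 and FA 6, and at 1.42, 1.18, 0.599 and 0.426 in DE 1, DE 3, DE 5 and DE 7. All 4 DE libraries were below all 4 FA libraries. This gave a log2 fold change of -1.03 (SE 0.32, 95% interval -1.72 to -0.34), with an adjusted p of 0.0779 by edgeR's quasi-likelihood test. DESeq2 gave it an adjusted p of 0.0275 and the likelihood ratio test of edgeR 0.0203. By limma-voom its adjusted p was 0.0570. Without DE 1 the log2 fold change was -1.31, with an adjusted p of 0.0307. Of the 8 fits that left out a library, this was the only 1 that called Wnt9b. Over these fits the log2 fold change ran from -1.31 to -0.84, with adjusted p up to 0.164. With the length and GC offsets the log2 fold change was -1.10, with an adjusted p of 0.0359. Within the 11 names it was -0.93, with an adjusted p of 0.228. The difference rests on 300 counts in all 8 libraries. Wnt9b (chr11:103727362-103775272) overlaps its neighbour Wnt3 on the opposite strand by 1098 bases in RefSeq, and Wnt3 had 10 counts. Whether the counting used strand is not stated, so reads in the overlap are uncertain.

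Wnt11 was measured on the other side. It was at 4.39, 5.23, 3.61 and 4.33 normalized CPM in the FA libraries and at 5.87, 6.77, 5.86 and 4.85 in the DE libraries. DE 7 lay below FA 3, so that the groups overlapped. Its log2 fold change was 0.42 (SE 0.16), with an adjusted p of 0.132. Of the summed ligand level per kilobase Wnt11 made up 17.0% ± 3.12 in FA and 24.4% ± 3.97 in DE (SD, n = 4). Wnt5b, which also signals mainly without beta-catenin, gave 3.55 ± 0.133 normalized CPM in FA and 3.18 ± 0.531 in DE (SD, n = 4), with an adjusted p of 0.597.

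Several Wnt genes are close neighbours on the chromosome, and 4 pairs lay within 50 kb. In each pair at least 1 gene had 10 counts or fewer. Wnt3a had 0 counts and Wnt9a, which lies 16097 bases away on chromosome 11, had 549. On chromosome 15 Wnt10b had 58 counts and Wnt1 had 3, and on chromosome 1 Wnt6 had 13 and Wnt10a had 1.

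Of the 10 Frizzled receptors 9 were tested and none was called, against 5.8% of all tested genes, with 2 at an unadjusted p under 0.05, against 25.6% of all tested genes. Their median log2 fold change was -0.08, and 6 were measured lower. Per kilobase Fzd6, a receptor tied mostly to planar polarity, was highest at 10.8 and Fzd1 next at 7.56 normalized CPM per kilobase, and Fzd9 was lowest of the tested ones at 0.518. Fzd6 lay at 52.0, 49.4, 54.9 and 51.6 normalized CPM in FA and at 47.7, 40.4, 35.1 and 49.0 in DE. The highest DE library, DE 7, lay just below the lowest FA library, FA 3. On the log2 scale the difference was -0.27 (SE 0.12, adjusted p = 0.166), and it was -0.11 within the 11 names (adjusted p = 0.691). Fzd1 stood at 31.6 ± 5.05 normalized CPM in FA and 31.8 ± 4.39 in DE (SD, n = 4), with an adjusted p of 0.982 and a 95% interval of the log2 fold change from -0.30 to 0.31.

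Fzd3, a receptor for axon guidance and planar polarity, lay at 27.3, 18.5, 27.0 and 23.8 normalized CPM in FA and at 18.5, 12.1, 13.2 and 22.1 in DE. DE 7 and FA 3 broke the order of the groups. Its log2 fold change was -0.56 (SE 0.20, adjusted p = 0.107), and without DE 7 it was -0.73 (adjusted p = 0.0483). Of the 8 fits that left out a library, only that 1 called Fzd3. Over these fits the log2 fold change ran from -0.73 to -0.44, with adjusted p up to 0.263. Fzd3 has 12734 bases of exon. Over all 2312 tested genes with more than 6 kb of exon, the median log2 deviation from the mean of the 8 libraries was 0.25, -0.09, 0.22 and -0.01 in FA 2, FA 3, FA 4 and FA 6. It was 0.07, -0.22, -0.26 and 0.08 in DE 1, DE 3, DE 5 and DE 7. Among 3486 genes with less than 2 kb of exon the signs were reversed in every library. Fzd3, like the long genes as a class, was highest in FA 2 and FA 4 and lowest in DE 3 and DE 5. With offsets for length and GC content in the fit, its log2 fold change was -0.27 (adjusted p = 0.0779), and within the 11 names it was -0.26 (adjusted p = 0.496).

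The co-receptor Lrp6 was likewise highest in FA 2 and FA 4 and lowest in DE 3 and DE 5. It has 9368 bases of exon and lay at 133, 92.9, 127 and 95.6 normalized CPM in FA and at 97.9, 62.7, 70.0 and 109 in DE. Its log2 fold change was -0.40 (SE 0.19, adjusted p = 0.202). With the length and GC offsets the difference was -0.20 (adjusted p = 0.134). Within the 11 names it was -0.12 (adjusted p = 0.784). Lrp5, the other co-receptor, has 6008 bases of exon and gave 39.8 ± 5.45 normalized CPM in FA and 45.6 ± 7.09 in DE (SD, n = 4, adjusted p = 0.396). Per kilobase Lrp6 made up 64.2% ± 2.06 of the pair in FA and 54.0% ± 7.04 in DE (SD, n = 4), and only the share in DE 7, at 61.5%, reached into the FA range.

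The tested members with more than 6 kb of exon were 6 in all, and those beside Fzd3 and Lrp6 varied in how far they followed the long genes. Except for Lrp5 they are named here after their values were seen. Fzd4 was at 46.2, 26.1, 49.9 and 42.0 normalized CPM in FA 2, FA 3, FA 4 and FA 6, and at 49.2, 32.0, 23.2 and 51.2 in DE 1, DE 3, DE 5 and DE 7. Wnt5a was at 6.79, 4.88, 6.49 and 4.38 in FA and at 8.32, 4.76, 4.24 and 6.02 in DE. Both were higher in FA 2, FA 4, DE 1 and DE 7 than in the other libraries, as the long genes were. Fzd5 was at 44.5, 33.6, 44.5 and 26.0 in FA and at 29.9, 30.8, 33.2 and 49.4 in DE. Lrp5 was at 44.0, 37.7, 44.5 and 33.1 in FA and at 51.9, 50.2, 36.3 and 43.9 in DE. These departed from that order, Fzd5 with a low DE 1 and Lrp5 with a high DE 3. The groups overlapped for all 4, and their adjusted p were 0.866 for Fzd4, 0.930 for Wnt5a, 0.880 for Fzd5 and 0.396 for Lrp5.

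**Figure D3:**
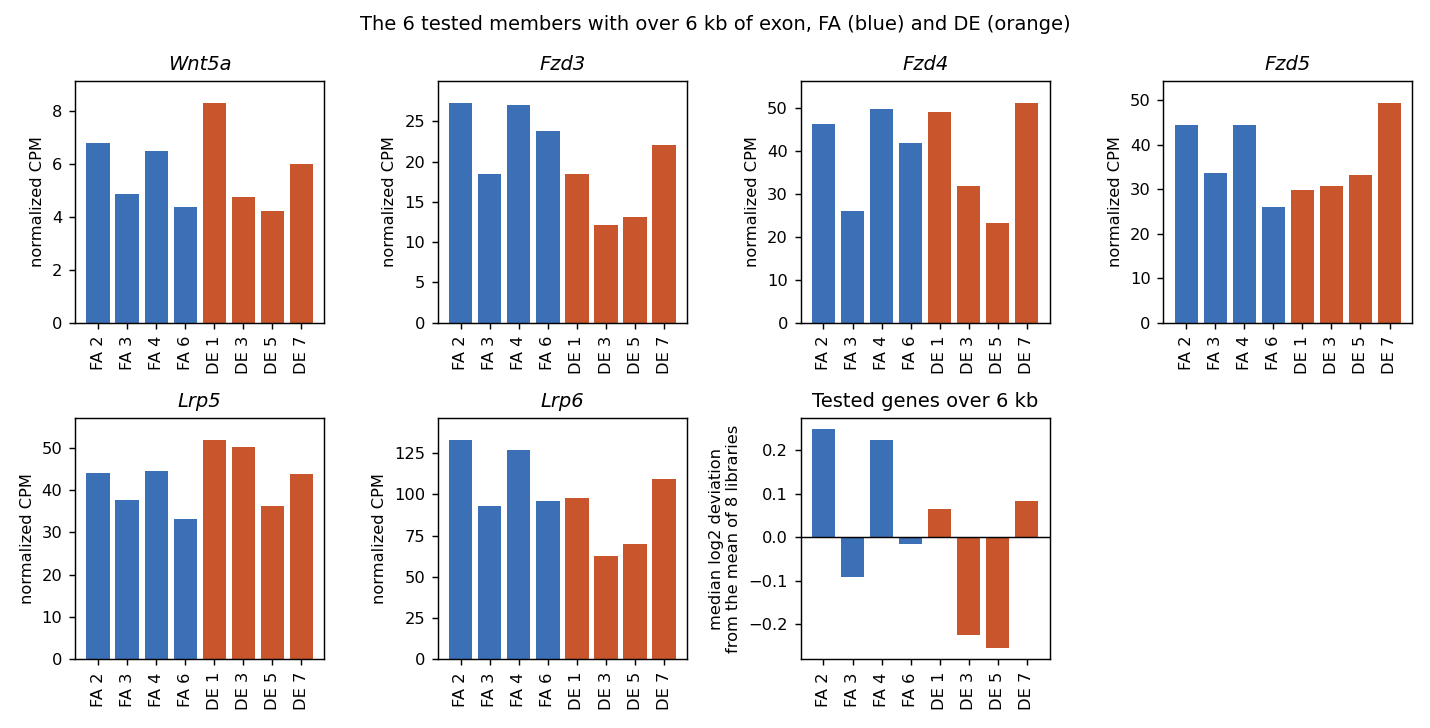
Normalized CPM (bars from 0) of the 6 tested members with more than 6 kb of exon in each FA (blue) and DE (orange) library, with the median log2 deviation of all tested genes over 6 kb of exon in the last panel. DE 3 and DE 5 were lowest for the long genes as a class, at -0.22 and -0.26, and were the lowest libraries for Lrp6 and Fzd3, while Fzd5 and Lrp5 were ordered otherwise.

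The Axin scaffolds were not called. Axin1, which is made at a steady level in most cells, gave 56.3 ± 9.31 normalized CPM in FA and 53.5 ± 1.89 in DE (SD, n = 4, adjusted p = 0.724). Axin2 is itself switched on by beta-catenin and serves as a readout of the pathway. It lay at 6.84, 5.43, 5.42 and 3.05 normalized CPM in FA and at 5.63, 4.39, 4.46 and 3.84 in DE. Every DE value lay inside the FA range. DE differed from FA by -0.18 on the log2 scale, with a 95% interval from -0.67 to 0.30 (adjusted p = 0.631). Axin1 made up 92.6% of the pair per kilobase in FA and 92.9% in DE.

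Among the TCF and LEF factors Tcf7l1 rose. It lay at 16.4, 17.7, 15.5 and 15.7 normalized CPM in FA 2, FA 3, FA 4 and FA 6, and at 22.1, 25.1, 24.9 and 18.5 in DE 1, DE 3, DE 5 and DE 7. All 4 DE libraries were above all 4 FA libraries, with DE 7 closest to them. The means were 16.3 ± 1.02 in FA and 22.7 ± 3.09 in DE (SD, n = 4). The log2 fold change was 0.48 (SE 0.12, 95% interval 0.22 to 0.74), which is 1.39-fold, with an adjusted p of 0.0404. Within the 11 names it was 0.31, with an adjusted p of 0.253, so the call was not kept there. It was also lost without FA 2 (adjusted p = 0.118), FA 3 (0.0598), FA 4 (0.136), FA 6 (0.0727), DE 3 (0.129) or DE 5 (0.0932), with log2 fold changes between 0.42 and 0.52. The gene lies at chr6:72626371-72789045 on the minus strand.

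Tcf7l2, the family member with the broadest expression, was near Tcf7l1 in level, at 5.39 against 6.32 normalized CPM per kilobase over all libraries. It gave 22.8 ± 2.29 normalized CPM in FA and 24.9 ± 4.37 in DE (SD, n = 4, adjusted p = 0.578). Tcf7 and Lef1 are targets of the pathway as well as its factors, and both were low. Tcf7 lay between 2.36 and 3.39 normalized CPM in FA and between 2.07 and 3.57 in DE (adjusted p = 0.623). Lef1 lay between 0.590 and 0.846 in FA and at 0.847, 0.660, 0.299 and 0.160 in DE 1, DE 3, DE 5 and DE 7, and rests on 132 counts in all (adjusted p = 0.532). Tcf7l1 made up 45.0% ± 0.663 of the summed level of the 4 factors per kilobase in FA and 52.0% ± 5.71 in DE (SD, n = 4). Its share in DE 7, at 44.5%, was inside the FA range of 44.1% to 45.6%, and in the other DE libraries it was between 50.8% and 57.4%.

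Of the 10 secreted inhibitors 7 were tested and 2 were called higher in DE, where 3.58% of all tested genes were. With 6 of the 7 measured higher, the median log2 fold change was 0.45, beside 0.0037 over all tested genes. Wif1 (Wnt inhibitory factor), which binds Wnt ligands outside the cell, was at 15.5, 13.7, 14.8 and 18.05 normalized CPM in FA 2, FA 3, FA 4 and FA 6, and at 29.0, 20.0, 21.2 and 24.0 in DE 1, DE 3, DE 5 and DE 7. The groups did not overlap. The means were 15.5 ± 1.86 in FA and 23.6 ± 3.99 in DE (SD, n = 4), and the log2 fold change was 0.60 (SE 0.14, 95% interval 0.30 to 0.91), or 1.52-fold, with an adjusted p of 0.0312. Wif1 kept its call within the 11 names, at 0.77 with an adjusted p of 0.0224. It lost it without FA 2 (adjusted p = 0.0963), FA 3 (0.0729), FA 4 (0.103) or DE 7 (0.0535), with log2 fold changes between 0.55 and 0.60. The gene lies at chr10:121034004-121100642 on the plus strand.

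Frzb, a decoy that resembles the Frizzled ligand-binding domain, was at 4.71, 3.99, 5.59 and 6.59 normalized CPM in FA 2, FA 3, FA 4 and FA 6. In DE 1, DE 3, DE 5 and DE 7 it was at 8.68, 8.89, 7.26 and 7.36. All DE values were above all FA values, with FA 6 nearest to them. The means were 5.22 ± 1.13 in FA and 8.05 ± 0.861 in DE (SD, n = 4). The log2 fold change was 0.63 (SE 0.17, 95% interval 0.27 to 1.00), or 1.55-fold, with an adjusted p of 0.0486. The estimate within the 11 names was also 0.63, with an adjusted p of 0.142. Its call was lost without any single library other than FA 6, with adjusted p from 0.0592 without DE 7 to 0.151 without FA 2 and log2 fold changes from 0.52 to 0.68. The other values were 0.0922 without FA 3, 0.113 without FA 4, 0.0681 without DE 1, 0.141 without DE 3 and 0.0647 without DE 5. The gene lies at chr2:80411970-80447396 on the minus strand.

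Sfrp1, a soluble Frizzled-related protein, had the highest level of all 47 members, at 15.5 normalized CPM per kilobase, followed by Dkk3 at 14.6. Sfrp1 gave 66.9 ± 4.18 normalized CPM in FA and 68.6 ± 9.90 in DE (SD, n = 4), and its 95% interval ran from -0.21 to 0.28 on the log2 scale (adjusted p = 0.870). Dkk3, a Dkk relative that does not bind Lrp co-receptors like the others, was at 48.9, 32.6, 39.2 and 45.4 normalized CPM in FA and at 95.1, 62.0, 32.4 and 37.7 in DE. DE 1 and DE 3 were above every FA library, and DE 5 was just below every one. Over the groups this gave a log2 fold change of 0.45 (SE 0.29, adjusted p = 0.346). Without DE 1 it was 0.081 and not called, and within the 11 names it was 0.68 (adjusted p = 0.259).

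Sfrp2, named after its values were seen, varied widely within both groups. It was at 17.6, 4.88, 8.63 and 11.2 normalized CPM in FA and at 34.8, 24.99, 12.4 and 6.98 in DE. DE 1 and DE 3 stood above the FA range while DE 5 and DE 7 lay inside it. Its log2 fold change was 0.89, with an SE of 0.46 and an adjusted p of 0.243. Over the 20 alternatives it ran from 0.48 to 1.27, and none called it. Dkk1, also named after its values were seen, was too low to be tested, with 77 counts in all and 0.188 ± 0.0789 normalized CPM in FA and 0.455 ± 0.193 in DE (SD, n = 4). The summed inhibitor level lay between 127 and 160 normalized CPM in FA and between 139 and 253 in DE, and the groups overlapped.

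The fibroblast markers were measured on the same side as these inhibitors. Their sum was 3116, 2015, 2922 and 3469 normalized CPM in FA 2, FA 3, FA 4 and FA 6, and 6186, 4708, 3665 and 4545 in DE 1, DE 3, DE 5 and DE 7. All DE libraries lay above all FA libraries. The median log2 fold change of the 9 markers was 0.64, beside 0.63 for Frzb, 0.60 for Wif1 and 0.48 for Tcf7l1. DE 1 had the highest marker sum and the highest Wif1, Sfrp2 and Dkk3, while Tcf7l1 and Frzb were highest in DE 3. The part of the fibroblast content in these results was not tested. In bulk RNA more cells of a type cannot be told apart from more RNA per cell. The epicardial and mesothelial markers gave sums of 152 to 181 normalized CPM in FA and 148 to 171 in DE, with none of 7 called, against 5.8% of all tested genes. The endothelial, smooth muscle and pericyte, leukocyte, erythroid, and Schwann and neural lists held no called gene by edgeR's quasi-likelihood test, where 5.8% of all tested genes were called. In that order they had 3 of 8, 1 of 7, 1 of 5, 0 of 5 and 2 of 3 tested markers at an unadjusted p under 0.05. The fibroblast list had 7 of 9, and over all tested genes the share was 25.6%. Of the lists with no called gene, the leukocyte list had a median log2 fold change of 0.49 (4 of 5 tested markers measured higher), with sums of 11.9 to 18.04 normalized CPM in FA and 14.8 to 25.4 in DE. The erythroid list had a median of 0.40 (5 of 5), with sums of 758 to 1879 in FA and 1206 to 2019 in DE. The endothelial list had a median of 0.17 (7 of 8), with sums of 979.5 to 1280 in FA and 1043 to 1555 in DE. The smooth muscle and pericyte list had a median of 0.13 (4 of 7), while its sum was 1154 to 1804 in FA and 815 to 1248 in DE, and Acta2, smooth muscle actin, was at -0.63 with an adjusted p of 0.0562. Their part in the results was not tested.

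**Figure D4:**
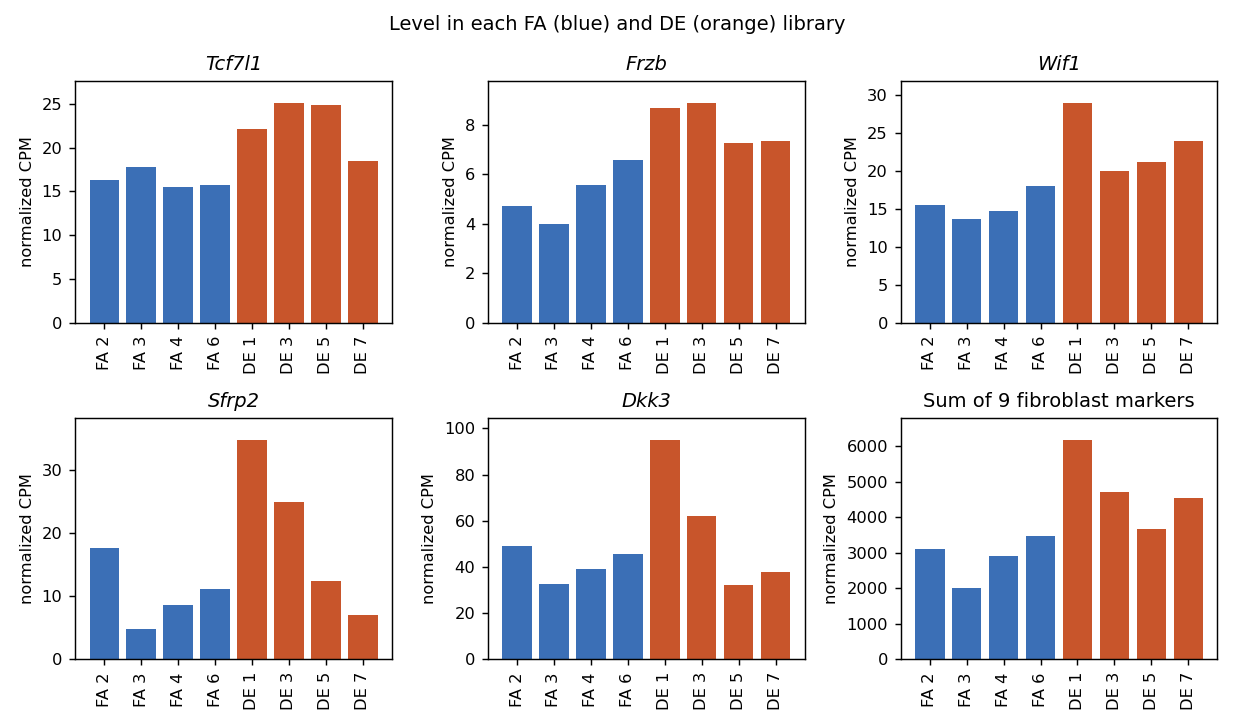
Normalized CPM (bars from 0) of Tcf7l1, Frzb, Wif1, Sfrp2 and Dkk3 and the summed normalized CPM of 9 fibroblast markers in each FA (blue) and DE (orange) library. The groups do not overlap for Tcf7l1, Frzb, Wif1 and the marker sum (2015 to 3469 in FA, 3665 to 6186 in DE), and they overlap for Sfrp2 and Dkk3.

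Around these members, 92 further genes of the pathway were looked up in 7 lists, and 82 of them were tested. There 2 were called, both higher in DE, and 21 had an unadjusted p under 0.05, a share equal to the 25.6% of all tested genes. The share of tested pathway genes called was thus 2 of 82, beside 5.8% of all tested genes, and the median log2 fold change was -0.02. None was called lower by edgeR's quasi-likelihood test, while DESeq2 and edgeR's likelihood ratio test each called 1 lower, Dvl3, and 3 higher, with Ptk7 added.

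Ccnd1, cyclin D1, which drives entry into the cell cycle and is a classical beta-catenin target with many other inputs, was called. It lay at 36.0, 29.4, 40.5 and 39.98 normalized CPM in FA and at 58.6, 79.7, 64.4 and 63.4 in DE. All DE libraries were above all FA libraries. The log2 fold change was 0.87 (SE 0.13), with an adjusted p of 0.00493. It stayed called within the 11 names (0.74, adjusted p = 0.0243) and without each library in turn. The other tested genes of its list were not called, and the list of 10 tested targets had a median of 0.17 with 6 measured higher and 4 lower. Of the 10 targets, 4 had an unadjusted p under 0.05, against 25.6% of all tested genes. These were Ccnd1, Apcdd1 (0.52), Bmp4 (0.50) and Nkd1 (0.39), all measured higher in DE. Apcdd1, Bmp4 and Nkd1 are named here after their values were seen. Axin2, Lef1 and Tcf7, which also respond to beta-catenin, had log2 fold changes of -0.18, -0.42 and -0.17, none of them called by edgeR's quasi-likelihood test. These values shifted with single libraries. That of Axin2 was -0.0095 without FA 2 and -0.37 without FA 6, and that of Lef1 was -0.79 without DE 1 and -0.20 without DE 5. That of Tcf7 was -0.069 without DE 3 and -0.33 without DE 7, and it was 0.016 within the 11 names and 0.020 with the prefix as a term.

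Adgra2, an adhesion receptor that works with Reck to let Wnt7 ligands signal in vessels, was the other called gene. Its values were 55.9, 49.9, 67.5 and 49.5 normalized CPM in FA and 98.6, 95.1, 66.2 and 77.2 in DE. DE 5 lay below FA 4, so the groups overlapped. The log2 fold change was 0.60 (SE 0.15, adjusted p = 0.0393). Within the 11 names it was 0.65, with an adjusted p of 0.0591. The call was lost without FA 2 (adjusted p = 0.113), FA 3 (0.0846), FA 6 (0.0756), DE 1 (0.0609), DE 3 (0.115) or DE 7 (0.0503), with log2 fold changes between 0.51 and 0.63. The fibroblast marker sums given above were higher in the DE libraries here too, and their part was not tested.

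The remaining lists held no called gene by edgeR's quasi-likelihood test, against 5.8% of all tested genes. Of the genes that lipidate and carry Wnt ligands out of the cell, Wls gave 165 ± 9.07 normalized CPM in FA and 149 ± 13.3 in DE, and Porcn gave 3.31 ± 0.531 and 2.89 ± 0.372 (SD, n = 4). Among R-spondin receptors Lgr6 gave 9.31 ± 1.91 in FA and 7.03 ± 0.397 in DE, with no overlap and an adjusted p of 0.118, and Lgr4 gave 147 ± 16.3 and 131 ± 31.4. In the list of beta-catenin, the destruction complex and the transducers, all 24 genes were tested and none was called, where 5.8% of all tested genes were. There Dvl3, a Dishevelled adaptor below Frizzled, gave 52.2 ± 11.0 in FA and 36.8 ± 6.82 in DE (adjusted p = 0.0924), and Apc, which holds the destruction complex together, gave 160 ± 33.02 and 116 ± 30.1 (adjusted p = 0.162). Apc has 13153 bases of exon and, like Fzd3 and Lrp6, was highest in FA 2 and FA 4 and lowest in DE 3 and DE 5. Its log2 fold change was -0.46 and ran from -0.61 to -0.17 over the alternatives, none of which called it. Dvl3 was called lower by DESeq2 (adjusted p = 0.0477), by the likelihood ratio test (0.0445), with the length and GC offsets (0.0353) and without DE 1 (0.0365). Of the nuclear cofactors Tle3, a co-repressor of TCF factors, gave 28.3 ± 3.04 in FA and 34.4 ± 2.39 in DE (adjusted p = 0.134), and Pygo2, a co-activator, gave 32.2 ± 5.17 and 39.9 ± 5.18 (adjusted p = 0.175). Among the receptors outside the Frizzled family Ptk7 gave 37.3 ± 0.745 in FA and 47.3 ± 5.91 in DE (adjusted p = 0.0743), and Ror2, a receptor for Wnt5a, gave 22.1 ± 1.12 and 26.5 ± 2.12 (adjusted p = 0.124). Both sat wholly above the FA range in DE, and the quasi-likelihood test called neither. Ptk7 was called by DESeq2 (adjusted p = 0.0291), by the likelihood ratio test (0.0479) and with scaling by library totals alone (0.0458).

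**Figure D5:**
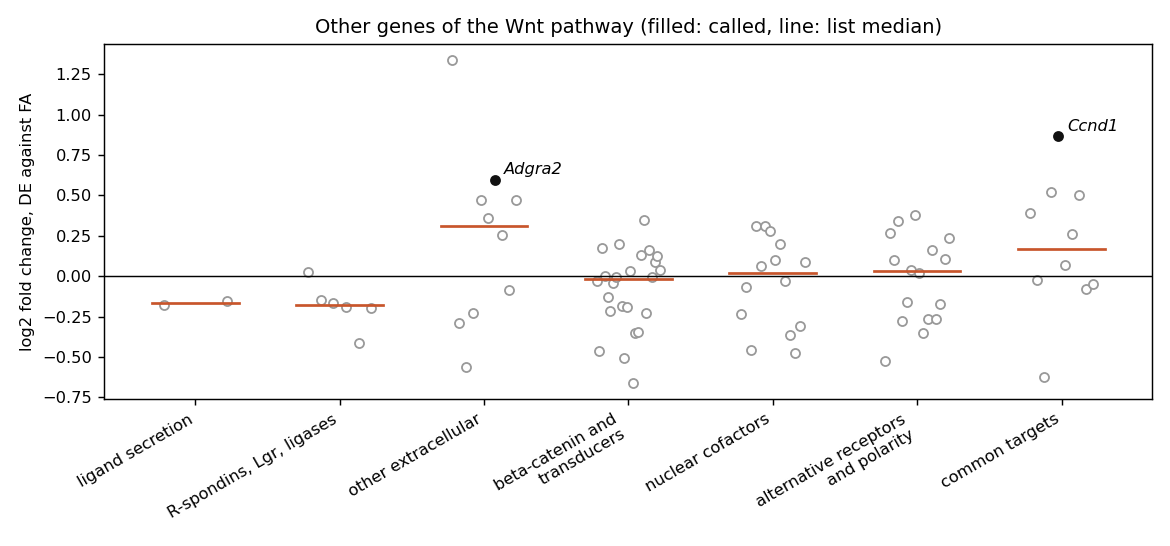
Log2 fold change of DE against FA (vertical axis) for the 82 tested genes of 7 further lists of the pathway, each point a gene and each line the median of a list. Filled points mark the 2 called genes, Adgra2 at 0.60 and Ccnd1 at 0.87.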

How the data were processed

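RNA-seq was available for 8 NCM libraries, 4 FA and 4 DE, grouped by the treatment in their labels. The file deposited by the authors holds unnormalized counts for each Entrez gene, made by aligning reads to mm10 and an Ensembl transcriptome with TopHat, marking duplicates with Picard, realigning with GATK and counting with featureCounts. The versions of the aligner and the counter, whether counting used strand, and how reads with several matches were handled are not given in the sources used here. Duplicates were kept, so limits from counting cover counting error only.

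Entrez identifiers were matched to symbols in a RefSeq table on GRCm38.p6 (25275 of 27179 genes). The naming rule was read to include Wnt10a and Wnt10b. Exon lengths were the union of exons in GENCODE M21 basic. The members, their roles, the pathway lists and the markers were chosen with earlier results of these data known. Genes were filtered with edgeR's filterByExpr (10 counts), scaled by TMM (factors 0.969 to 1.057) and fitted with glmQLFit and glmQLFTest in edgeR 4.0.16 with R 4.3.3 and exposure as the only term. No test was run over a list. The code was tested on simulated data. No pair of libraries agreed within sampling noise (smallest chi-square per gene 5.058). Totals were 17943024 to 39839737 counts.

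Members were named with values where they were called, had an unadjusted p under 0.05, were among the 2 highest per kilobase of their role, or were Axin2, Lef1 or Tcf7. From the pathway lists the called genes were named, and from a list with none called the 2 with the smallest p. Alternatives were DESeq2 1.42.0, the likelihood ratio test of edgeR, limma-voom (limma 3.58.1), a 25% difference built into the test, 3 other scalings, 2 other filters, the name prefix (11 or 12) as a term or restricted to 11, offsets for length and GC content (spline with 5 degrees of freedom, 95.4% of tested genes covered), and leaving out each library. Long and short genes were followed with a pseudocount of 0.5 CPM. Promoters were the 250 bases before each RefSeq start site. Hbb-bt and protein sequences were not analysed here.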

Additional observations from a re-analysis of the deposited data

Results flagged for a closer look

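Among the 18 named members and 12 named pathway genes, 60 groups of 4 libraries were searched for a library far from the others, and 2 stood out. Chance alone flags about 1 in 20 such groups. Fzd1 was at 38.4 normalized CPM in DE 1, while the other DE libraries lay between 29.32 and 29.79. Axin1 was at 42.44 normalized CPM in FA 6, while the other FA libraries lay between 59.97 and 62.03. Neither gene was called between the groups.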

How the results depend on the processing

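In all, 20 alternatives were run, 8 of them leaving out a library. Among all genes 868 were called, against 1633 with DESeq2, 1603 with the likelihood ratio test, 114 with the 25% difference built into the test, 448 with the prefix as a term, 260 within prefix 11, 1598 with length and GC offsets, and 237 to 1168 when 1 library was left out. For the 3 called members the counts were 4 with DESeq2, 4 with the likelihood ratio test and 4 with the offsets, Wnt9b being added as lower in each, 0 with the 25% difference built in, 1 with the prefix as a term, 1 within prefix 11 and 0 to 3 without 1 library. They were 0 without FA 2, FA 3 or FA 4, and 1 without DE 3 or DE 5. No fit that left out a library kept all 3, since the 3 called without DE 1 were 2 of them and Wnt9b, and the 2 called without DE 7 were 1 of them and Fzd3. The gene kept under the prefix was Wif1. For the 2 called pathway genes the counts were 4 with DESeq2, 4 with the likelihood ratio test, 1 with the 25% difference built in, 1 with the prefix as a term, 1 within prefix 11, 5 with the offsets and 1 to 2 without 1 library. The direction reversed for Fzd1 with the offsets (-0.047) and without 1 library (-0.099 to 0.085), for Sfrp1 without 1 library (-0.072 to 0.079), for Tcf7 with the prefix as a term (0.020) and within prefix 11 (0.016), and for Lgr4 in the same fits (0.039 and 0.035). None of these 4 genes was called. Over 599 values of single genes under the alternatives, 546 kept direction and side of the threshold, 33 lost the call, 12 gained it and 8 reversed. The cause of these changes was not tested. The fits that leave out libraries also hold fewer of them, and the part of this was not tested either. The labels do not pair FA libraries with DE libraries, so no paired analysis was run. With a biological coefficient of variation of 15.95%, 4 libraries a group leave wide intervals for members under 1 CPM. Some members above 1 CPM had wide intervals too, such as Sfrp2 (-0.11 to 1.90 on the log2 scale) and Dkk3 (-0.18 to 1.08).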
